A study of Mus musculus with 8 samples.

Results

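Gpcpd1 and 8 other genes that make or break down phosphatidylcholine were followed in livers of mice with metabolic dysfunction-associated steatohepatitis (MASH). They are 9 of the 52636 genes in the deposited tables and were found by matching Ensembl identifiers to the symbols Gpcpd1, Gde1, Chka, Chkb, Pcyt1a, Chpt1, Cept1, Chdh and Lcat. The set was chosen on measured values of the same comparison, in which Gpcpd1 held the first place among all tested genes by p-value, so differences between the groups in these 9 genes are given as a description with no test. The livers came from 8 male C57BL/6J mice, all injected at 7 weeks of age with an adeno-associated virus of serotype 8 (AAV8) whose cargo was driven by the hepatocyte-specific TBG promoter. The cargo was GFP in the 4 control mice, numbered 303, 311, 314 and 315, and human AGXT in the 4 AAV8-AGXT mice, numbered 308, 309, 316 and 319. AGXT is the peroxisomal enzyme that converts glyoxylate to glycine. From 8 weeks of age every mouse received a diet rich in fat, fructose and cholesterol for 24 weeks, so no group on standard chow enters the comparison, and each mouse gave 1 RNA library.

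Phosphatidylcholine is the most abundant phospholipid of hepatocyte membranes, of lipoproteins and of bile. The liver builds it mainly through the CDP-choline branch, in which choline is phosphorylated, activated with CTP and joined to diacylglycerol, and to a lesser part by methylating phosphatidylethanolamine. It is broken down by removal of both fatty acids to glycerophosphocholine, which a phosphodiesterase splits into choline and glycerol 3-phosphate. The freed choline can enter the CDP-choline branch again or be oxidized to betaine, a methyl donor and osmolyte.

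Promoter sequences are shown for 2 of the 9 genes, Chka and Chpt1, because these members of the CDP-choline branch lay on opposite sides between the groups. The RefSeq promoter table (GRCm38.p6) held 8 of the 9 genes, without Gpcpd1. Each stretch below gives the 250 bases before the annotated start, read 5′ to 3′ on the strand of the gene, with capitals marking the GC box (GGGCGG) and the CCAAT box (CCAAT) on either strand. The Chka stretch is chr19:3851523-3851772 on the plus strand and the Chpt1 stretch is chr10:88503971-88504220 on the minus strand.
Chka: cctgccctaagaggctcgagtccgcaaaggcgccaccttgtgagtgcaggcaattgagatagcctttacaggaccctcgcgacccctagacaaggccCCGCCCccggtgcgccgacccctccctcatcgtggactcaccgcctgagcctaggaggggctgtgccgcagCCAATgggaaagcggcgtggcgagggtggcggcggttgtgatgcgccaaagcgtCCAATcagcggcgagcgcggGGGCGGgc
Chpt1: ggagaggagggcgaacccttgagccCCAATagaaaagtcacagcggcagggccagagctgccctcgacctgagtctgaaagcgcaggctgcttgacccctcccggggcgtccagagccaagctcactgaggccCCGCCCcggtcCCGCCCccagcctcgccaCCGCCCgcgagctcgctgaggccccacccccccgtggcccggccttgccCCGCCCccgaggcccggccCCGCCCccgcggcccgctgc
Counted back from the start, Chka had GC boxes at -153 and -8 and CCAAT boxes at -82 and -28. Chpt1 had 5 GC boxes, the nearest at -20 and the farthest at -117, and a CCAAT box at -225. Among 32851 promoter windows of the same table, 32.7% held a GC box and 33.8% a CCAAT box, so both motifs are common. An E-box (CACGTG, in 6.02% of windows) and a forkhead motif (GTAAACA, in 3.17%) were searched for as well on both strands, and neither occurred in the 14 windows of the 8 genes. A TATA box (TATAAA, in 12.4% of windows) occurred in Chkb at -109, and a nuclear receptor half-site (AGGTCA, in 14.0%) in Gde1 at -250, and neither in a window of another of the 8 genes. These matches describe the letters of the windows and were not linked to binding in these livers.

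The libraries held 17095433 to 28780140 read pairs assigned to genes. Of all genes, 15248 passed the low-count filter, and all 9 genes were among them. Expression is given as normalised read counts (CPM), that is counts scaled to one common library total with TMM factors that correct for library composition, and group values are means ± SD of 4 mice. A gene is said to be called when its adjusted p in edgeR's quasi-likelihood test was under 0.05 over all tested genes, and by that rule 4.35% of tested genes were called, 2.45% higher and 1.9% lower in AAV8-AGXT mice. No overlap between the mice of both groups was seen for 16.6% of tested genes. Mouse Agxt itself averaged 163.8 ± 15.8 CPM in controls against 305.2 ± 98.3 CPM with AAV8-AGXT (SD, n = 4 each), with a log2 fold change of 0.90 (adjusted p = 0.0489, edgeR quasi-likelihood test). The transgene is the human gene, which has no row of its own in the tables, so how much of it the mouse row counted was not tested.

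Gpcpd1, the phosphodiesterase that splits glycerophosphocholine, showed the widest difference of the 9 genes. The gene (ENSMUSG00000027346) lies at chr2:132529082-132587729 on the minus strand of GRCm38, has 13 annotated transcripts and shares no exon with another gene. In AAV8-GFP mice it was counted at 40.3 CPM in mouse 303, 32.1 in 311, 31.5 in 314 and 36.8 in 315. In AAV8-AGXT mice it was counted at 133.9 CPM in mouse 308, 139.5 in 309, 156 in 316 and 193 in 319. Every AAV8-AGXT mouse thus stood far above every AAV8-GFP mouse. The group means were 35.2 ± 4.17 and 155.6 ± 26.7 CPM (SD, n = 4 each), a 4.42-fold difference or 2.14 on the log2 scale (SE 0.15). These values rest on 682 to 1050 read pairs per AAV8-GFP mouse and on 1939 to 4093 per AAV8-AGXT mouse, so counting error was small beside the spread between mice, which was 11.9% of the mean in AAV8-GFP and 17.2% in AAV8-AGXT mice.

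Gde1, another glycerophosphodiester phosphodiesterase, acts mainly on other glycerophosphodiesters and on lipid precursors of N-acylethanolamines. It was counted at 78.2, 71.7, 69.8 and 70.3 CPM in AAV8-GFP mice 303, 311, 314 and 315. In AAV8-AGXT mice 308, 309, 316 and 319 it stood at 89.1, 83.1, 88.6 and 107 CPM. The groups did not overlap, but the step between them was small, with a log2 fold change of 0.34 (SE 0.11). Read pairs on Gpcpd1 per read pair on Gde1, a ratio that needs no scaling between libraries, ran from 0.448 to 0.523 in AAV8-GFP mice and from 1.502 to 1.80 in AAV8-AGXT mice. Gpcpd1 was therefore the less counted of the 2 phosphodiesterase genes in every AAV8-GFP mouse and the more counted in every AAV8-AGXT mouse.

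The 2 choline kinases, which phosphorylate choline as the first step of the CDP-choline branch, were compared next. Chka (chr19:3851773-3894369, plus strand) was counted at 273, 222, 247 and 237 CPM in AAV8-GFP mice 303, 311, 314 and 315. In AAV8-AGXT mice 308, 309, 316 and 319 it stood at 142, 137, 97.6 and 80.5 CPM, all below every control mouse. The means were 244.7 ± 21.6 and 114.2 ± 29.95 CPM (SD, n = 4 each), or -1.10 as a log2 fold change (SE 0.18). Chkb, the other choline kinase, ranged from 128 to 201 CPM in AAV8-GFP and from 128 to 267 CPM in AAV8-AGXT mice, so the groups overlapped, with AAV8-AGXT mouse 308 above every control mouse, and the log2 fold change was 0.12 (SE 0.23). Of the 3061 exon bases of Chkb, 1552 are shared with Gm44502, an overlapping gene model on the same strand, which makes its count uncertain. There were 1.27 to 1.93 read pairs on Chka for each on Chkb in AAV8-GFP mice and 0.532 to 1.07 in AAV8-AGXT mice.

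Gpcpd1 and Chka, whose products release choline and capture it, were then set against each other. Read pairs on Gpcpd1 per read pair on Chka were 0.148, 0.145, 0.128 and 0.155 in AAV8-GFP mice 303, 311, 314 and 315. The same ratio was 0.943, 1.02, 1.595 and 2.401 in AAV8-AGXT mice 308, 309, 316 and 319. Mouse 319 had both the highest Gpcpd1 and the lowest Chka level of its group, and mouse 308 had the lowest Gpcpd1 and the highest Chka level. With 4 mice in a group, this ordering was not tested.

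**Figure D1:**
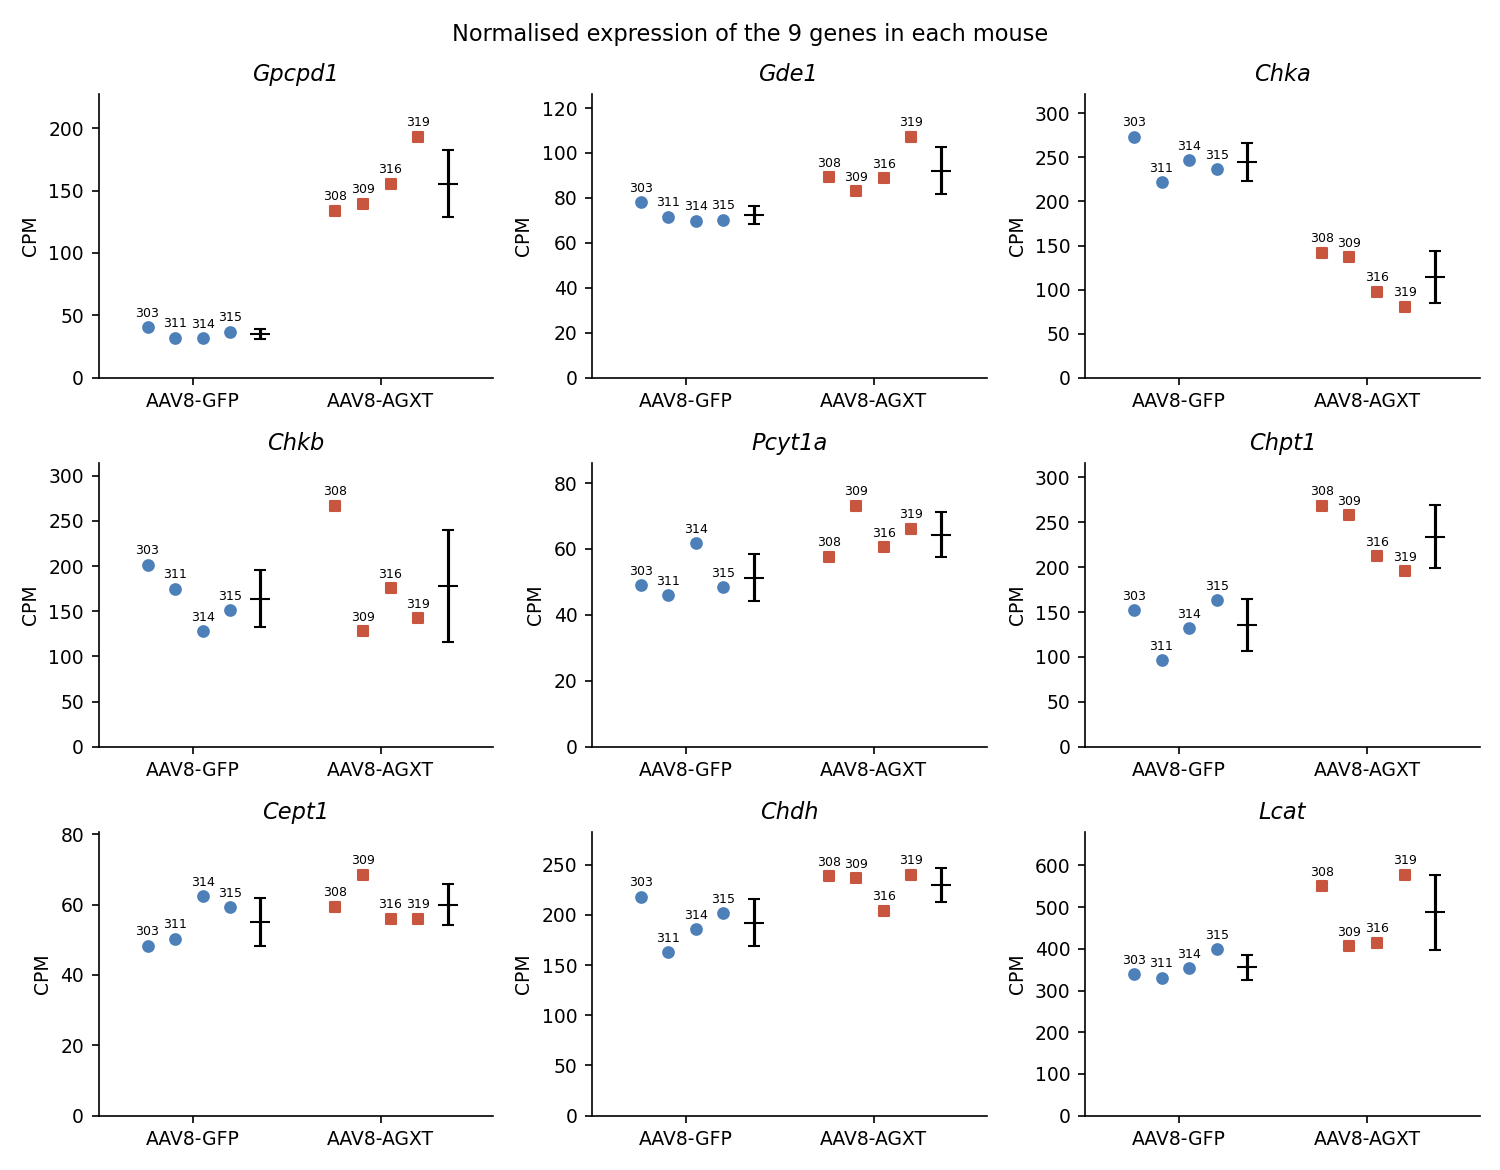
Normalised expression in CPM (y axis, starting at 0) of each of the 9 genes in the 4 AAV8-GFP mice (blue circles) and the 4 AAV8-AGXT mice (red squares), with mouse numbers above the points and the mean ± SD of each group as a black bar. Gpcpd1 sits between 31.5 and 40.3 CPM in AAV8-GFP mice and between 133.9 and 193 CPM in AAV8-AGXT mice, Chka lies the other way round without overlap, and the points of Chkb, Pcyt1a, Cept1 and Chdh overlap between the groups.

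The later steps of the CDP-choline branch showed smaller differences. Pcyt1a, which activates phosphocholine with CTP and sets the pace of the branch, was counted at 49.0, 46.0, 61.7 and 48.4 CPM in AAV8-GFP mice 303, 311, 314 and 315 and at 57.6, 73.1, 60.6 and 66.2 CPM in AAV8-AGXT mice 308, 309, 316 and 319. Its groups overlapped through mouse 314, and its log2 fold change was 0.33 (SE 0.12). Chpt1, the choline phosphotransferase that joins CDP-choline to diacylglycerol, was counted at 152, 96.6, 132 and 163 CPM in AAV8-GFP mice and at 268, 258, 212 and 196 CPM in AAV8-AGXT mice, in the same order of mice. The Chpt1 groups did not overlap, and the log2 fold change was 0.78 (SE 0.18), a 1.72-fold difference. Cept1, which makes both phosphatidylcholine and phosphatidylethanolamine from diacylglycerol, ran from 48.3 to 62.3 CPM in AAV8-GFP and from 56.0 to 68.4 CPM in AAV8-AGXT mice, with a log2 fold change of 0.12 (SE 0.11). Read pairs on Chpt1 per read pair on Cept1 were 1.92 to 3.15 in AAV8-GFP and 3.49 to 4.51 in AAV8-AGXT mice. Chpt1 shares 660 of its 8324 exon bases with Sycp3 and Cept1 shares 771 of 3116 with Dennd2d, both on the opposite strand. Pcyt1a shares 567 of 7412 with Slc51a, Gde1 229 of 1692 with Gm45236 and Chdh 589 of 6217 with Cacna1d, also on the opposite strand. The sources used here do not give the strand setting of the counting.

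The last 2 genes act on choline and on phosphatidylcholine outside the branch. Chdh, the mitochondrial dehydrogenase that starts the oxidation of choline to betaine, was counted at 218, 163, 185 and 202 CPM in AAV8-GFP mice 303, 311, 314 and 315 and at 238, 237, 204 and 239.8 CPM in AAV8-AGXT mice 308, 309, 316 and 319. Mouse 316 stood below its group and fell within the range of the control mice. The log2 fold change of Chdh was 0.26 (SE 0.12). Lcat, the secreted acyltransferase that moves a fatty acid from phosphatidylcholine to cholesterol in plasma lipoproteins, was counted at 339, 331, 353 and 399 CPM in AAV8-GFP mice and at 550.2, 406, 415 and 577 CPM in AAV8-AGXT mice. The Lcat groups did not overlap, with AAV8-GFP mouse 315 close to AAV8-AGXT mouse 309, and the log2 fold change was 0.45 (SE 0.15).

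Among the 9 genes, 8 had a log2 fold change above 0, and the median was 0.33, against a median of 0.02 over all tested genes. Gpcpd1 and Chpt1 were called higher and Chka was called lower, or 33.3% of the 9 against 4.35% of all genes. The groups did not overlap for 5 of the 9 genes, against 16.6% of all genes. Since these values chose the set, nothing is read from those shares. When the libraries were scaled by total counts alone, without a factor for composition, the median of all tested genes moved to -0.22 and the calls over all genes went from 374 higher and 290 lower to 144 higher and 857 lower. The log2 fold changes of Chkb and Cept1 were then below 0, while that of Gpcpd1 was 1.91 and that of Chka -1.34. Chpt1 came to 0.55 and was no longer called (adjusted p = 0.0614, edgeR quasi-likelihood test). Gde1 and Pcyt1a shrank to 0.10, Lcat to 0.21 and Chdh to 0.02, so these small differences depended on the scaling. The TMM factors ran from 1.02 to 1.14 in AAV8-GFP and from 0.83 to 1.00 in AAV8-AGXT mice. When single mice were left out, the log2 fold change ran from 2.03 to 2.22 for Gpcpd1, from -1.24 to -0.96 for Chka and from 0.63 to 0.88 for Chpt1. Chka was no longer called without mouse 311, 314 or 319, and Chpt1 in 7 of these 8 fits.

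The summed markers of hepatocytes moved with the groups. The summed level of 7 hepatocyte markers (Alb, Apoa1, Ttr, Cps1, Hnf4a, Serpina1c and Fah) ran from 43354 to 51818 CPM in AAV8-GFP and from 52867 to 74699 CPM in AAV8-AGXT mice, without overlap, and Cps1 alone of the 7 was called. Alb and Apoa1 made up most of this sum, with means of 29998 and 11425 CPM in AAV8-GFP mice. Taken singly, Alb, Apoa1, Ttr and Serpina1c overlapped between the groups. The 6 stellate cell markers summed to 447.5 to 789.2 CPM in AAV8-GFP and 198.7 to 517.8 CPM in AAV8-AGXT mice, and the 5 cholangiocyte markers to 224.5 to 673.1 and 74.1 to 272.5 CPM, with no gene of either list called. Col1a1, Col3a1 and Dcn carried most of the stellate sum, with log2 fold changes of -1.77, -1.37 and -0.15. Des and Pdgfrb stood at -0.50 and -0.67, and Lrat at 0.11. Spp1, at -1.62, dominated the cholangiocyte sum, and Krt7, Krt19, Epcam and Sox9 lay between -1.36 and -0.91. In whole liver, fewer cells of a type and less RNA per cell cannot be told apart, and cell numbers were not tested. Taken per 1000 CPM of the summed hepatocyte markers in the same mouse, a scaling chosen after those sums were seen, Gpcpd1 stood at 0.735 ± 0.111 in AAV8-GFP and 2.55 ± 0.572 in AAV8-AGXT mice (SD, n = 4 each), a log2 ratio of 1.79 without overlap. Chka stood at 5.11 ± 0.610 and 1.84 ± 0.451 on this scale, a log2 ratio of -1.47, again without overlap. For the other 7 genes the groups overlapped on this scale, with log2 ratios of 0.43 for Chpt1 and 0.08 for Lcat and between -0.29 and -0.01 for Gde1, Pcyt1a, Chdh, Cept1 and Chkb. Gde1, Chpt1 and Lcat, whose groups did not overlap in CPM, thus overlapped on this scale.

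Levels of different genes were compared per kilobase of annotated exon. In AAV8-GFP mice the order from high to low was Lcat at 265 CPM per kb, Chkb at 53.6, Gde1 at 42.8, Chdh at 30.9, Chka at 20.3, Cept1 at 17.7, Chpt1 at 16.3, Pcyt1a at 6.92 and Gpcpd1 at 4.83. The values of neighbours in this order overlapped between mice for Chkb with Gde1, for Chka with Cept1 and for Cept1 with Chpt1, and for no other adjacent pair. In AAV8-AGXT mice the order was Lcat at 363 CPM per kb, Chkb at 58.1, Gde1 at 54.4, Chdh at 37.0, Chpt1 at 28.1, Gpcpd1 at 21.3, Cept1 at 19.3, Chka at 9.50 and Pcyt1a at 8.68. There the adjacent values overlapped for Chkb with Gde1, Chpt1 with Gpcpd1, Gpcpd1 with Cept1 and Chka with Pcyt1a. Gpcpd1 was thus the lowest of the 9 genes in AAV8-GFP livers and lay in the middle of the order in AAV8-AGXT livers. The places of Chka and Chpt1 depend on the length used. The 14 transcripts of Chka spread over 12024 exon bases while the longest holds 4652. Per kb of the longest transcript Chka came to 52.6 in AAV8-GFP and 24.5 in AAV8-AGXT mice, and Gpcpd1 to 8.08 and 35.7. On that length Chpt1 came to 27.9 and 48.0, above Cept1 at 19.6 in AAV8-GFP and above Chdh at 40.4 in AAV8-AGXT mice.

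**Figure D2:**
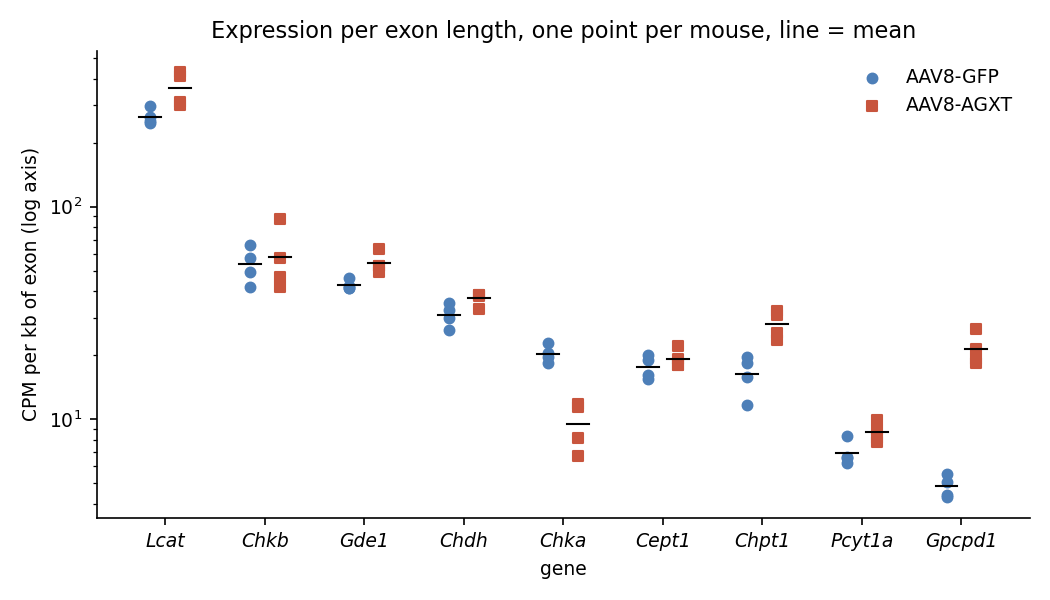
Expression per kilobase of exon (y axis, CPM per kb, log scale) of the 9 genes, ordered by their mean in AAV8-GFP mice, with 1 point per mouse (blue circles AAV8-GFP, red squares AAV8-AGXT) and a line at each group mean. Gpcpd1 goes from the last place, 4.83 CPM per kb, to 21.3 CPM per kb, near Chpt1 and Cept1, and Chka goes from 20.3 to 9.50 CPM per kb.

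The comparison was then carried to 64 further genes of choline and phospholipid metabolism, grouped by role, of which 57 passed the low-count filter. Of these, 5 were called higher and 1 lower in AAV8-AGXT mice, or 10.5% against 4.35% of all tested genes. The groups did not overlap for 12 of the 57, against 16.6% of all tested genes. The median log2 fold change of the 57 was 0.13, with 33 above 0. Over all tested genes the median was 0.02, with 7974 of 15248 above 0. An unadjusted p under 0.05 (edgeR quasi-likelihood test) was reached by 20 of the 57, or 35.1%, against 26.2% of all tested genes. Because the lists were chosen with earlier results of these data known, nothing is read from these shares or from the counts by role below. Without mouse 311, 314 or 319 none of the 6 was called, with adjusted p from 0.0774 to 0.153, and over all genes the calls then fell to 2, 11 and 12 higher and 0, 4 and 2 lower. All adjusted p-values here come from the edgeR quasi-likelihood fit over the 15248 tested genes.

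Genes of choline oxidation beyond choline dehydrogenase all had log2 fold changes above 0. Of these 5 genes, 2 were called higher, or 40% against 4.35% of all tested genes called in either direction. Dmgdh, the mitochondrial dimethylglycine dehydrogenase, was counted at 225, 167, 209 and 232 CPM in AAV8-GFP mice 303, 311, 314 and 315 and at 392, 356, 353 and 328 CPM in AAV8-AGXT mice 308, 309, 316 and 319. It rose by 0.78 on the log2 scale (SE 0.13, adjusted p = 0.0283). Sardh, which oxidizes sarcosine to glycine in the next step, rose from 380.4 ± 56.9 to 649.4 ± 75.7 CPM (SD, n = 4 each), or as a log2 fold change 0.77 (SE 0.15, adjusted p = 0.0344). Neither gene overlapped between the groups, also per 1000 CPM of hepatocyte markers, where the log2 ratios were 0.43 and 0.42. Bhmt, Bhmt2 and Aldh7a1 had log2 fold changes of 0.52, 0.58 and 0.44 and were not called. These uncalled genes were not set against the hepatocyte markers, whose own log2 fold changes ran from 0.15 (Ttr) to 0.96 (Cps1).

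Synthesis and methylation of phosphatidylethanolamine, the other source of hepatic phosphatidylcholine, held 1 called gene among 8. Etnk2, a liver ethanolamine kinase, was counted at 166, 229.6, 168 and 234 CPM in AAV8-GFP mice 303, 311, 314 and 315 and at 554, 204, 543 and 536 CPM in AAV8-AGXT mice 308, 309, 316 and 319. Etnk2 had a log2 fold change of 1.20 (SE 0.29, adjusted p = 0.0495). AAV8-AGXT mice 308, 316 and 319 stood far above the controls, and mouse 309 stood within their range. Per 1000 CPM of hepatocyte markers the log2 ratio of Etnk2 was 0.83, with overlap between the groups. Pcyt2, which activates phosphoethanolamine with CTP, and Pemt, the methyltransferase that turns phosphatidylethanolamine into phosphatidylcholine, had log2 fold changes of 0.32 (SE 0.22) and 0.11 (SE 0.15) and were not called.

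Of 4 tested genes for phospholipase D and release of the head group, 1 was called higher and 1 lower. Enpp2 encodes autotaxin, the secreted enzyme that splits lysophosphatidylcholine into choline and lysophosphatidic acid. It rose from 52.4 ± 4.68 to 80.0 ± 5.91 CPM (SD, n = 4 each), or as a log2 fold change 0.61 (SE 0.10, adjusted p = 0.0276), without overlap. Pld2, a phospholipase D that frees choline from phosphatidylcholine, fell from 24.4 ± 2.17 to 16.9 ± 2.25 CPM, a log2 fold change of -0.53 (SE 0.12, adjusted p = 0.0451), also without overlap. The other 2 genes of this role had log2 fold changes of -0.52 (SE 0.21) and 0.05 (SE 0.24) and were not called. Per 1000 CPM of hepatocyte markers the log2 ratio was 0.25 for Enpp2 and -0.88 for Pld2, without overlap for either.

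Of 7 tested genes for transport, secretion and lipases, 1 was called higher. Lipg, the endothelial lipase that hydrolyses phospholipids of high-density lipoprotein, was counted at 3.67, 9.92, 3.51 and 8.12 CPM in AAV8-GFP mice and at 22.99, 15.2, 11.5 and 20.6 CPM in AAV8-AGXT mice. Lipg had a log2 fold change of 1.47 (SE 0.36, adjusted p = 0.0498), just under the threshold, and no fit with a mouse left out called it. Per 1000 CPM of hepatocyte markers its groups overlapped, with a log2 ratio of 1.06. The other 6 genes of this role had log2 fold changes from -0.16 to 0.84 and were not called. None of 12 tested deacylation genes was called, with Pnpla7, a lysophospholipase upstream of glycerophosphocholine, at 218.9 ± 27.1 and 276.4 ± 85.9 CPM and Pla2g6 at 108 ± 19.5 and 111 ± 29.3 CPM.

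No gene was called among 6 choline transporters, 5 other genes of the CDP-choline branch, 5 lysophospholipid acyltransferases, 3 other glycerophosphodiesterase genes and 2 sphingomyelin synthases. By edgeR's quasi-likelihood test, 3, 2, 2, 1 and 0 of these reached an unadjusted p under 0.05, which 26.2% of all tested genes did. Slc44a1, a choline transporter of the plasma membrane and mitochondria, averaged 34.1 ± 5.16 CPM in controls against 28.3 ± 1.83 CPM with AAV8-AGXT, and Slc44a2 was at 24.3 ± 4.98 and 15.6 ± 1.54 CPM. Of the 6 choline transporters, 1 had a log2 fold change above 0, the median was -0.45, and 2 did not overlap between the groups. Lpin2 and Lpin1, phosphatidate phosphatases that supply diacylglycerol, had log2 fold changes of 0.60 (SE 0.17) and 1.05 (SE 0.64), the latter with mice from 49.8 to 351.7 CPM within AAV8-AGXT. Lpcat3, the most highly counted of the lysophosphatidylcholine acyltransferases, had a log2 fold change of 0.16 (SE 0.13) and Lpcat2 one of -0.80 (SE 0.39). Of the relatives of Gpcpd1 in the glycerophosphodiesterase family, Gdpd5, which also acts on glycerophosphocholine, was scarce at 4.37 ± 1.25 and 2.395 ± 0.508 CPM, and Gdpd1 was at 2.25 ± 0.530 and 1.85 ± 0.423 CPM. The log2 fold changes of Sgms2 and Sgms1 were 0.27 (SE 0.19) and -0.0043 (SE 0.17).

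**Figure D3:**
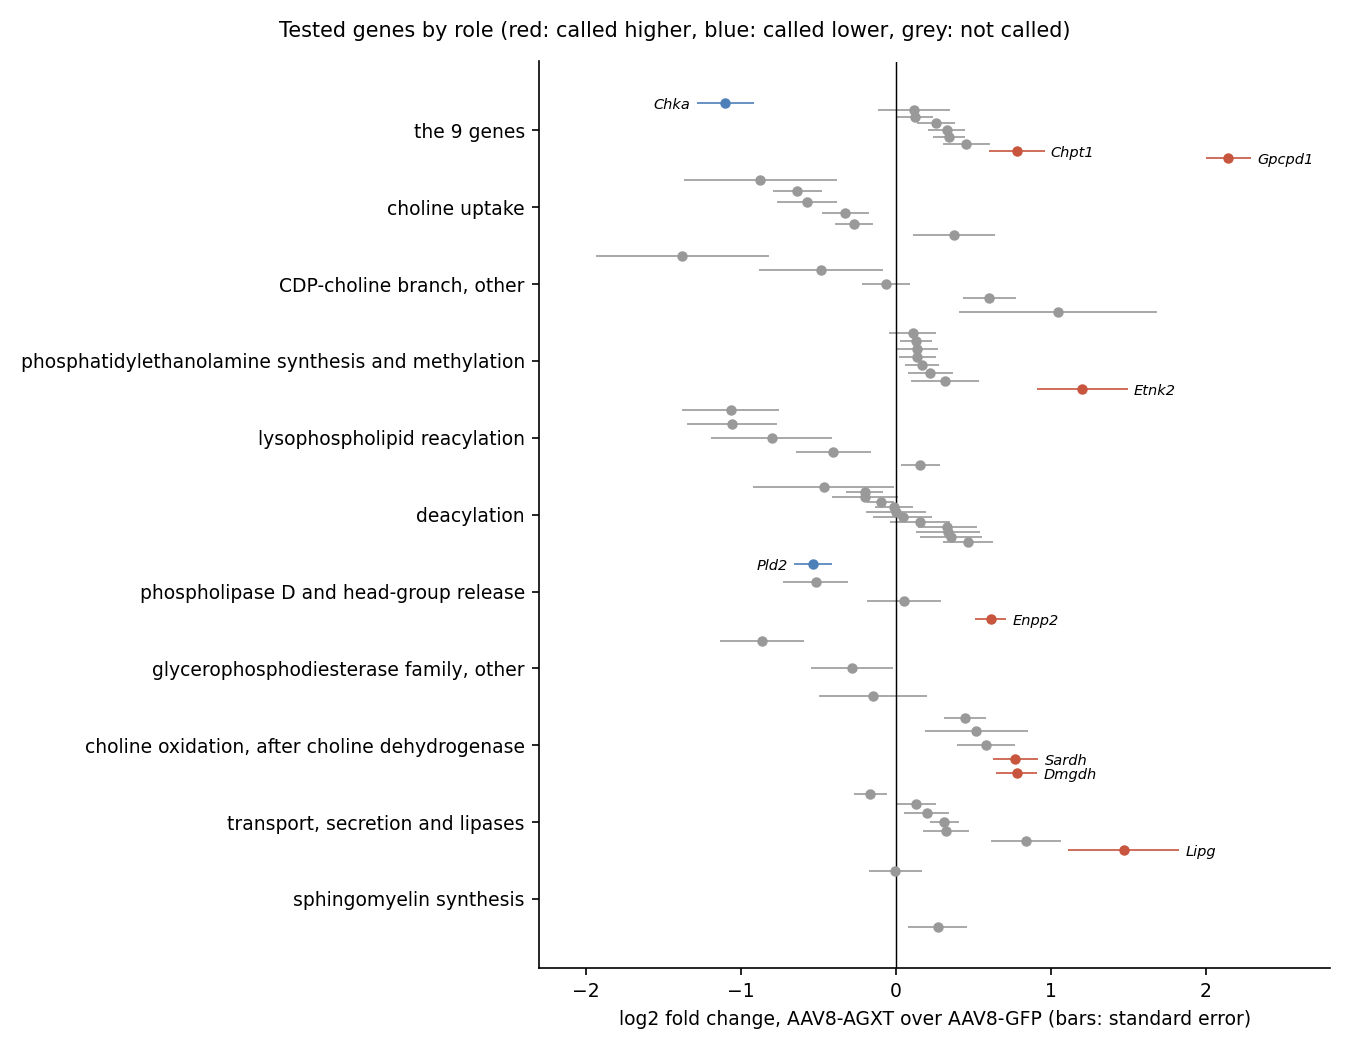
Log2 fold change of AAV8-AGXT over AAV8-GFP (x axis, bars are standard errors) for the 9 genes and for the tested genes of each further role (rows), with genes called higher in red, called lower in blue and not called in grey. Gpcpd1 at 2.14 lies farthest to the right, and the calls among the further genes are Etnk2, Enpp2, Pld2, Sardh, Dmgdh and Lipg. All 5 genes of choline oxidation and all 8 of phosphatidylethanolamine synthesis and methylation lie above 0. Only 1 of 6 choline transporters, 1 of 5 lysophospholipid acyltransferases and 0 of 3 other glycerophosphodiesterase genes do.

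The chromosomal surroundings of Gpcpd1 were examined next. Within 500 kb on either side the tables list 30 genes, of which 11 passed the low-count filter and 1 was called. This was Gm14097 (ENSMUSG00000084839), an antisense RNA gene at chr2:132694432-132698523 on the minus strand, 106.7 kb from Gpcpd1 on the side of its start. It gave 83, 53, 31 and 51 read pairs in AAV8-GFP mice 303, 311, 314 and 315 and 126, 121, 185 and 218 in AAV8-AGXT mice 308, 309, 316 and 319. Its level rose from 2.14 ± 0.816 to 8.94 ± 1.29 CPM (SD, n = 4 each), or as a log2 fold change 2.06 (SE 0.26, adjusted p = 0.0162, edgeR quasi-likelihood test). Without mouse 311, 314 or 319 it was no longer called, with adjusted p from 0.0532 to 0.104. The gene lies within the span of Shld1, a gene of DNA end protection on the other strand, and shares 48 of its 470 exon bases with it. Shld1 itself was at 5.30 and 7.23 CPM, a log2 fold change of 0.45 (SE 0.16, adjusted p = 0.117). The 9 other tested neighbours had log2 fold changes between -0.76 and 0.27 and were not called. Among them Crls1 and Cds2, which serve the synthesis of cardiolipin and of phosphatidylinositol, stood at -0.08 (SE 0.11) and 0.09 (SE 0.11).

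**Figure D4:**
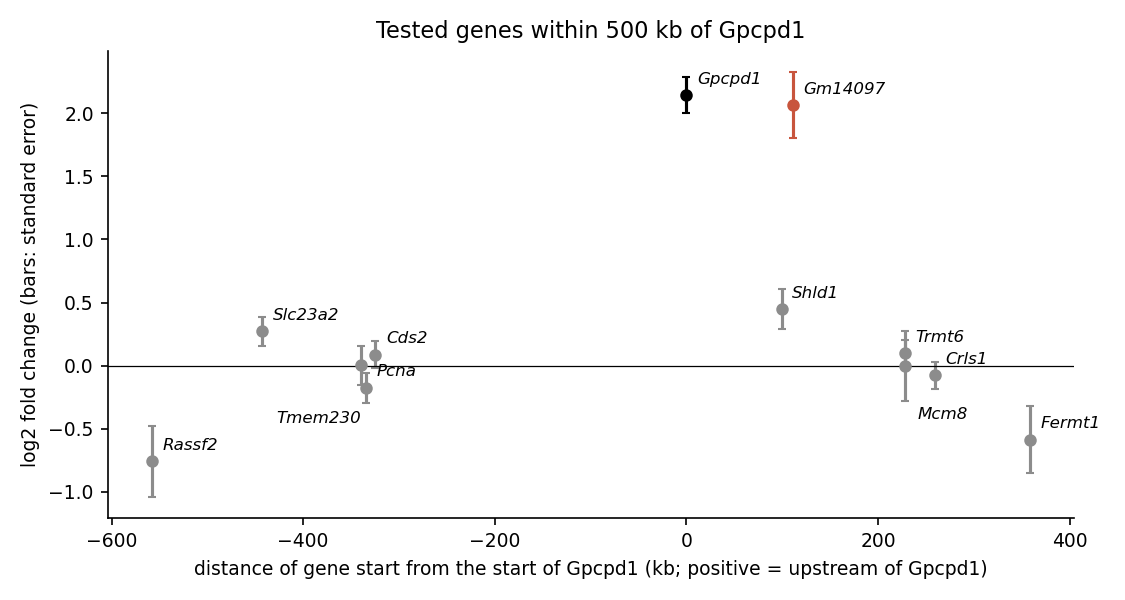
Log2 fold change with standard error (y axis) of Gpcpd1 (black) and of the 11 tested genes whose bodies lie within 500 kb of it, against the distance in kb of each gene's start from the start of Gpcpd1 (x axis, positive on the upstream side). Gm14097 (red, called) lies level with Gpcpd1 at 2.06, and the other genes lie between -0.76 and 0.45.

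Finally, the genes whose profiles over the 8 mice were closest to that of Gpcpd1 were identified. Likeness was measured as the root-mean-square difference of log2 CPM after centring each gene on its mean, over 13745 genes with a mean of at least 1 CPM, for which the median difference was 1.10. The 4 closest genes were Gm14097 at 0.23, Bhlhe41 at 0.31, Slc43a1 at 0.35 and Cyp2c54 at 0.38. Because closeness to Gpcpd1 requires a like difference between the groups, their fold changes are a description. Bhlhe41, a transcriptional repressor of the circadian system, averaged 2.03 ± 0.566 CPM in controls against 6.97 ± 0.696 CPM with AAV8-AGXT. Slc43a1, an amino acid transporter, was at 1.71 ± 0.275 and 5.56 ± 0.674 CPM. In AAV8-GFP mice Bhlhe41 rested on 32 to 62 and Slc43a1 on 30 to 61 read pairs per mouse, so counting error adds to their spread. Cyp2c54, a cytochrome P450 with close paralogs that can share reads, was at 28.1 ± 9.97 and 129 ± 34.3 CPM. Of the other 8 genes of phosphatidylcholine turnover, Chpt1 was closest at 0.74, in place 243, and Chka was among the farthest at 1.68, in place 13145. With a prior count of 0.5 in place of 2, all 4 genes were again among the 5 closest, and with the median absolute difference as the measure, 3 were.

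**Figure D5:**
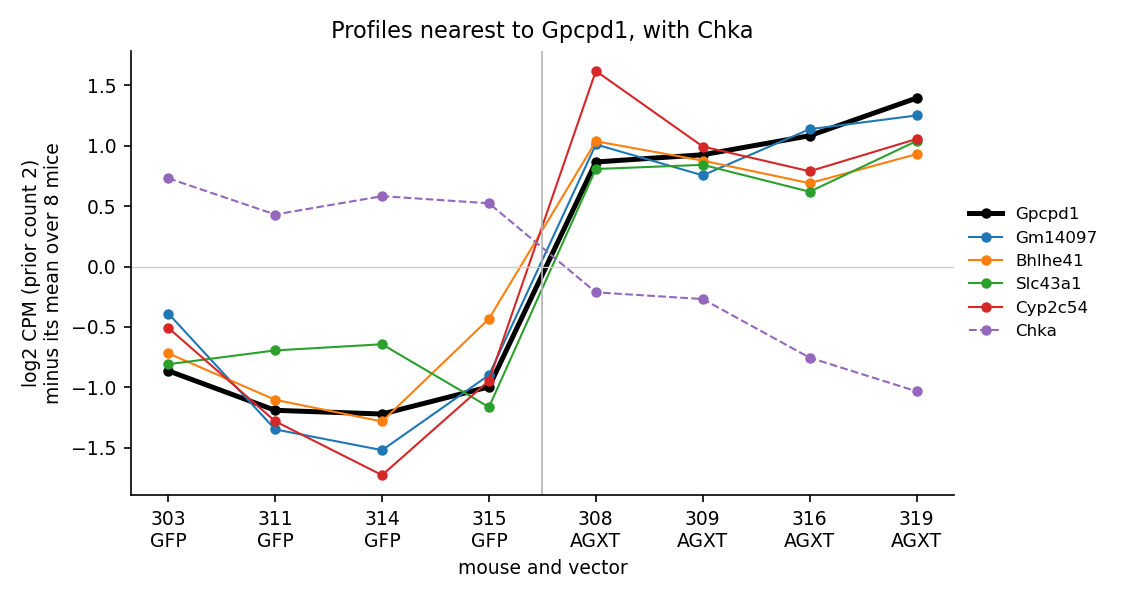
Log2 CPM (prior count 2) minus the mean over the 8 mice (y axis) of Gpcpd1 (thick black), of its 4 closest genes and of Chka (dashed), in each mouse (x axis, AAV8-GFP to the left of the grey line). Gpcpd1 and the 4 genes lie below 0 in every AAV8-GFP mouse and above 0 in every AAV8-AGXT mouse, and Chka lies the other way round.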

How the data were processed

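Livers of 8 mice were sequenced as stranded mRNA libraries. The authors aligned reads to GRCm38 (Ensembl release 90) by HISAT2 2.1.0.13 after trimming by Trimmomatic 0.35, and the deposited values are raw HTSeq counts per gene, not normalized. The lowest RNA integrity number was 8.3. The strand option of the counting is not given in the sources used here. Of 52636 genes, 52489 were matched to GENCODE M21, the source of positions and exon lengths. In R 4.3.3, edgeR 4.0.16 tested AAV8-AGXT against AAV8-GFP with filterByExpr, TMM factors, the quasi-likelihood test and Benjamini-Hochberg adjustment over 15248 genes, called at an adjusted p under 0.05. Fold changes carry edgeR's prior count of 0.125, and log2 CPM a prior count of 2. The common biological coefficient of variation was 23.3%, so for genes with many read pairs the spread between 4 mice per group, more than depth, limits precision.

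The 9 genes, the gene lists and the tests were chosen with earlier results of these data known. Genes named beyond the 9 were, per role, up to 4 with an adjusted p under 0.05 or, where none passed, the 2 with the highest mean CPM, the tested genes within 500 kb of Gpcpd1, and its 5 closest profiles, of which 1 is not reported here. Bhmt, Bhmt2 and Aldh7a1 were named beyond this rule, to complete their role, after their values were seen. Pcyt2 and Pemt were also named beyond this rule. Alternatives were DESeq2 1.42.0, limma-voom (limma 3.58.1), robust estimation, DESeq2 size factors, total counts, 2 other filters and each mouse left out.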

Additional observations from a re-analysis of the deposited data

Results flagged for a closer look

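In 30 groups of 4 mice, those of the 9 genes and of the 6 called pathway genes, 2 held a mouse set far apart from the other 3 by Dixon's criterion (the gap to the nearest mouse set against the whole range), and chance alone flags about 1 group in 20. In AAV8-AGXT mouse 316, Chdh was at 204 CPM, with the nearest mouse of the group at 237 CPM (0.911 of the range). In AAV8-AGXT mouse 309, Etnk2 was at 204.4 CPM, with the nearest mouse of the group at 536 CPM (0.948 of the range). Without mouse 309, the log2 fold change of Etnk2 was 1.43 (adjusted p = 0.0134, edgeR quasi-likelihood test).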

How the results depend on the processing

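The counts of calls moved with the tool, the scaling and the mice. The main fit gave 374 higher and 290 lower genes, with 3 of the 9 genes and 6 pathway genes. With DESeq2's Wald test, 1077 genes were called higher and 1054 lower, along with 5 of the 9 genes (Gde1 and Lcat in addition) and 16 pathway genes, and scaling by total counts gave 144 and 857. With each mouse left out in turn, 2 to 379 genes were called higher, 0 to 325 lower, 1 to 3 of the 9 genes, 0 to 9 pathway genes and 0 to 1 neighbours of Gpcpd1. The lowest counts came without mouse 311, 314 or 319. The log2 fold change of Gpcpd1 ran from 1.91 to 2.22 over 15 fits. Chka lost its call in 3 of them and Chpt1 in 8, and since the 9 genes were chosen on these values, calls among them support nothing. The log2 fold change of Chkb turned to -0.14 with total counts, to -0.0114 without mouse 314 and to -0.16 without mouse 308, and lay at most at 0.23 with a mouse left out, and that of Cept1 to -0.11 with total counts. Relative to hepatocyte markers, an alternative added after the data were seen, it was -0.019 for Gde1, -0.29 for Chkb, -0.0136 for Pcyt1a, -0.22 for Cept1 and -0.10 for Chdh. Genes without overlap numbered 2525, and 3086 with total counts. No pathway gene named as called and no gene named as closest in profile to Gpcpd1 changed direction in these fits. The directions of its chromosomal neighbours, other than Gm14097, were not followed over these fits. Of 15 fits, 12 called Enpp2, Dmgdh and Gm14097, 10 Sardh, 9 Pld2, 4 Etnk2 and 3 Lipg. The causes were not tested. No paired analysis was possible because the labels give the mice no shared replicate numbers.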
